A study of Mus musculus with 12 samples.

Results

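The 46 genes described here code for the machinery of mitosis and the spindle, and they were chosen by name as a gene module, with earlier results of these arrays known. Each was found on the array by its RefSeq accession, and the brightest of its probes stood for the gene. All 46 were on the array and all passed the filter on dim signals, out of 24184 genes and transcripts tested in all. Of these 24184, called all genes below, 14732 had a gene symbol. The 46 were well above background on all 12 arrays, whereas the filter asked this only of the arrays of 1 group. They were grouped by role into 9 sets: the spindle assembly checkpoint (5 genes), mitotic kinases (4), the chromosomal passenger complex (4), the centromere and kinetochore (7), spindle motors and spindle assembly (6), the central spindle and cytokinesis (6), proteolysis of mitotic entry and exit (6), condensin and chromosome structure (6), and a transcription factor with a proliferation antigen (2).

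The RNA came from DKO172 cells, a mouse line of female origin established from a tumor of the fallopian tube, and was measured on 12 single-colour Agilent arrays. The line is known from mice lacking Dicer1, which the labels do not state, so all groups would share that loss. In 4 groups of 3 arrays, the cells carried a hygromycin-selectable plasmid for DICER1 D1709N, DICER1 G1809R, wild-type DICER1 (WT) or GFP, the control. They had received 2 µg of plasmid, were moved to new plates after 24 h and then stayed in 300 µg/ml hygromycin for 84 h, so that RNA was taken at 108 h. The promoter of the plasmid, the species of its DICER1 insert and whether DKO172 is a single clone could not be learned from the labels. Whether replicates were separate cultures is likewise unstated, so p-values here measure only the spread among these arrays, and part of it may be technical.

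DICER1 cuts microRNA precursors with its pair of RNase III domains, and D1709N and G1809R are cancer hotspot substitutions in its RNase IIIb domain, which releases the microRNAs of the 5p arm. Mitosis genes are switched on together in G2 and M phase, by B-MYB bound to the MuvB core and by FOXM1, and are held down in resting cells when MuvB joins p130 and E2F4 in the DREAM complex. Many of their promoters carry a short element called the cell cycle genes homology region, or CHR, to which MuvB binds. The products build the kinetochore, attach chromosomes to the spindle, delay anaphase until attachment is complete, and divide the cell.

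Depth and quality differed between arrays. On each array 49.5% to 82.7% of the probes were well above background. The highest share was on WT replicate 1, which also correlated least with its own group (r = 0.975 to 0.978 with the other WT arrays). The lowest correlation of any other group's arrays was 0.979. Slide 1 held replicate 1 of every group, and slide 2 held the rest. Of the 11 markers of fallopian tube (Müllerian) epithelium on the array, Krt8, Krt18, Krt19, Krt7, Ovgp1 and Wt1 were above background on all 12 arrays, whereas Pax8 and Foxj1, which define its secretory and ciliated cells, reached that on 4 arrays each. Of 8 endothelial genes, Kdr and Pecam1 were above background on all 12 arrays, Vwf on 11, Cldn5 on 4, Tek on 1, and Cdh5, Tie1 and Emcn on none. The probe of the mouse gene Dicer1 was at a log2 change of −0.86 ± 0.18 SE in WT against GFP (limma adjusted p = 0.035). Whether this probe also reads the insert is not known, so it was not used to check the labels. The number of arrays limits the precision of every value.

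All levels below are log2 intensities less the array's own 75th percentile, so that 0 marks that percentile, and values of different genes are not compared because each comes from its own probe. Changes are differences of these log2 levels. A gene is called where its limma p-value is under 0.05 after Benjamini-Hochberg adjustment across the 24184 genes of that comparison. Values of the 3 arrays of a group are given in the order of their replicate number, and SE is that of the limma fit. Arrays with the same replicate number moved together in all groups, so the counts of the 46 genes are also given with the replicate number as a block.

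**Figure D1:**
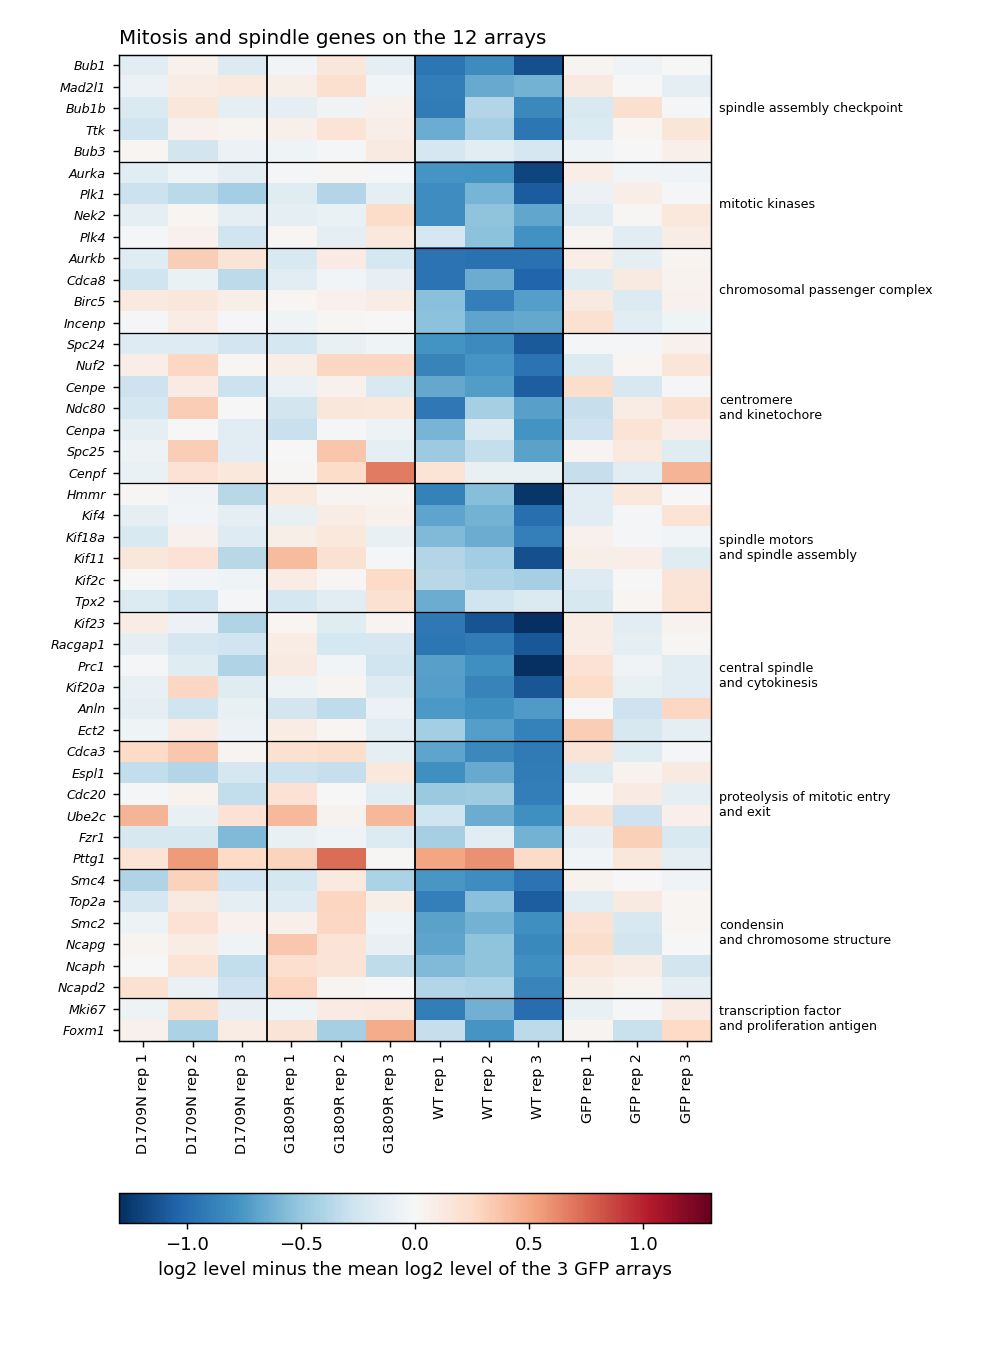
Log2 level of each of the 46 mitosis genes (rows, in role groups) on each of the 12 arrays (columns, in the order D1709N, G1809R, WT, GFP), less the mean of the 3 GFP arrays. The 3 WT columns are blue for nearly every gene, Pttg1 is the exception in red on all 3, Cenpf is near white or pale there, and the mutant blocks are as pale as the GFP block for most genes.

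Mitosis genes were lower with WT than with GFP. In WT against GFP, 26 of the 46 fell and 0 rose, where 1.76% of all genes tested were called lower and 1.19% higher. The largest fall was that of Kif23, a motor of the central spindle, at 2.20-fold, and the smallest among called genes was that of Incenp, the scaffold of the chromosomal passenger complex, at 1.55-fold. The median change of the 46 was −0.71 on the log2 scale, against 0.04 for all genes, and the medians within replicates 1, 2 and 3, each a WT array set against its GFP array, were −0.71, −0.58 and −0.89. The call count was 0 with median scaling of the arrays or with only these 2 groups in the fit, and 8 without the filter on dim probes. Of all genes, 13 and 3 of 24184 and 121 of 36945 were called lower in these fits, against 426 in the main fit. In bulk RNA, fewer cells in G2 and M phase and less RNA of these genes per cell cannot be told apart.

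With the replicate block 43 of the 46 were lower and 1, Pttg1, was higher, where 8.6% and 9.18% of all genes were. All 26 calls stood in that fit. By role, the block gave 4 of 5 checkpoint genes lower, 4 of 4 kinases, 4 of 4 passenger genes, 6 of 7 kinetochore genes, 6 of 6 each for spindle motors, the central spindle and condensin, 5 of 6 for proteolysis, and both Mki67 and Foxm1. For 40 of the 46 every WT array lay below every GFP array, as was so for 10.2% of all genes, and for Pttg1 every WT array lay above, as for 9.64% of all genes. Within the pairs, 44 genes were lower in all 3 and 1 was higher in all 3. On slide 1, with 1 array a group, the median was −0.71, and on slide 2 it was −0.74, with 44 and 45 genes below 0. Shares of all genes were not counted within the pairs or by slide, so these counts have no background to be set against. With the slide as a block 35 genes fell, where 4.49% of all genes did.

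The count depended on single arrays, and so did the number of all genes called lower, 426 in the main fit. Of the GFP arrays, leaving out replicate 3 gave 6, replicate 1 gave 11 and replicate 2 gave 17. All genes called lower then numbered 96, 115 and 229. Of the WT arrays, leaving out replicate 1 gave 16, and leaving out replicate 2 or 3 gave 14. For replicates 1, 2 and 3 all genes called lower numbered 186, 122 and 282. Leaving out a mutant array gave 21 to 26, with 268 to 361 of all genes. With the replicate block and any 1 array left out, 36 to 43 genes were lower and all 26 kept their call. In those fits 1079 to 1943 of all genes were lower. Spc24, Racgap1, Bub1, Aurka, Kif23 and Nuf2 were called in all 12 fits that left out an array, and the other 20 lost the call in at least 1.

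No mitosis gene was called in either mutant against GFP. In D1709N against GFP 0 of the 46 were called, where 0.0496% of all genes were, and their median change was −0.07 against 0.03 for all genes. In G1809R against GFP 0 of 46 were called, where 0.0124% of all genes were, with a median of 0.02 against 0.05. Unadjusted, 1 member with D1709N and 0 with G1809R had limma p under 0.05, as had 1744 and 1605 of all 24184 genes. With the replicate block the counts were again 0 and 0, although 4.25% and 3.74% of all genes were then called, and the smallest adjusted p of a member was 0.118 and 0.122. The changes ran from −0.36 to 0.33 with D1709N and from −0.22 to 0.34 with G1809R, and their 95% intervals lay between −0.73 and 0.75 with D1709N and between −0.60 and 0.80 with G1809R, so differences of that size in a single gene remain possible.

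Against WT, both mutants had higher levels of mitosis genes. With D1709N 17 of the 46 rose and 0 fell, where 0.992% of all genes were called higher and 0.67% lower. With G1809R 22 rose and 0 fell, where 1.04% of all genes were called higher and 0.604% lower. Their median changes were 0.66 and 0.74, against −0.01 and 0.01 for all genes. The pairs gave 0.59, 0.63 and 0.73 for D1709N and 0.66, 0.69 and 0.85 for G1809R. Both comparisons use the same 3 WT arrays as WT against GFP, so the 3 sets of values are not independent of each other. The counts were 0 and 0 with median scaling or with only the 2 groups of the comparison in the fit, and 2 and 2 without the filter on dim probes.

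With the replicate block the counts were 40 and 40, where 7.12% and 6.36% of all genes were called higher, and with the slide as a block 29 and 34, where 3.02% and 2.79% were. The mutant arrays all lay above the WT arrays for 39 genes with D1709N and 40 with G1809R, against 10% and 8.27% of all genes. The medians on slides 1 and 2 were 0.59 and 0.71 for D1709N and 0.66 and 0.74 for G1809R. Without the block, single arrays again decided the counts: for D1709N they were 0 without D1709N replicate 2, 4 without D1709N replicate 1 or 3, 8 without WT replicate 1, 5 without WT replicate 2, 11 without WT replicate 3 and 13 to 15 otherwise. For G1809R they were 4 without G1809R replicate 2, 6 without G1809R replicate 1 or 3, 9 without any 1 WT array and 15 to 21 otherwise. In blocked fits that left out 1 array, 30 to 39 rose with D1709N and 36 to 40 with G1809R.

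**Figure D2:**
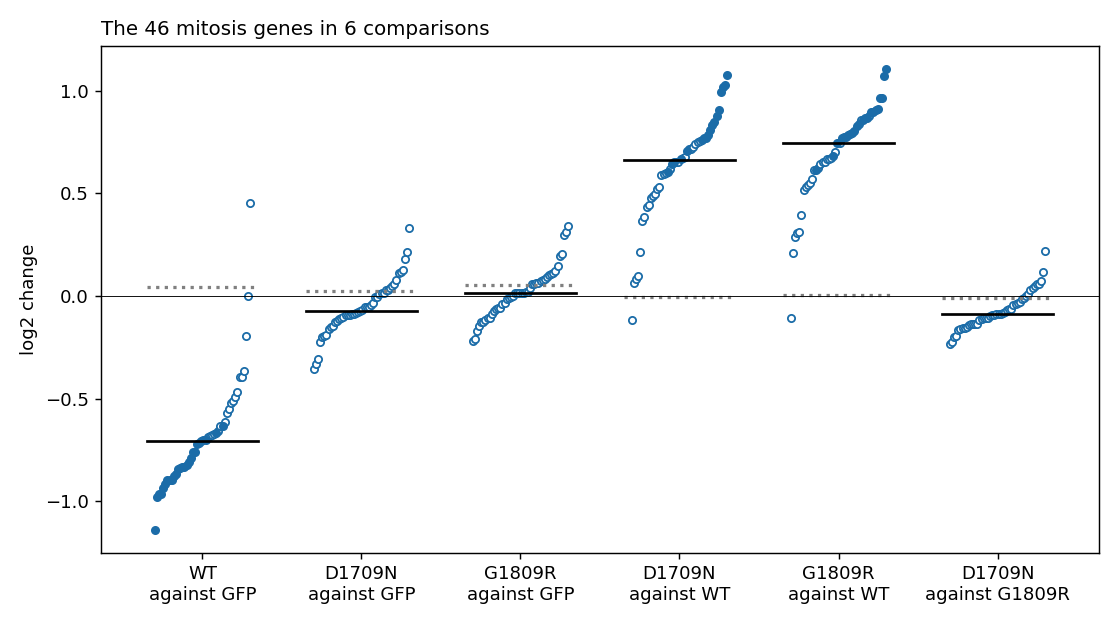
Log2 change of each of the 46 genes (points, ranked from lowest to highest within a column; filled, called by limma) in the 6 comparisons, with the median of the 46 (solid line) and of all genes tested (dotted line). The clouds sit below 0 in WT against GFP and above 0 in each mutant against WT, and around 0 in the 3 others.

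The promoters of 39 of the 46 genes were listed in the RefSeq table, as 300 bases from 250 before to 50 after the start of the gene on GRCm38.p6. The letters TTTGAA, the usual form of the CHR, stood on either strand in 28 of the 39 (71.8%) and in 20.2% of 27025 genes with such a promoter. With TTCGAA, another form of the CHR, counted as well, it was 29 of 39 (74.4%) against 21.7%. Within 50 bases of the start, 26 of the 39 (66.7%) held either form, against 6.12% of all genes with a promoter. CCAAT, the box bound by NF-Y, stood in 29 (74.4%) against 41.1%, and 26 (66.7%) held CCAAT and a CHR form, against 8.61%. A CHR form was present in 15 of the 21 listed genes called lower in WT against GFP and in 14 of the 18 not called. The genes not called are not a set of unchanged genes, since 43 of the 46 were lower with the replicate block. The listed start lay within 100 bases of the outer end of the gene's span for 33 of the 39. It lay further inside for 6, among them Aurka (316 bases), Pttg1 (1482) and Kif2c (3852), so that other starts of these genes were not searched.

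The stretches printed here run from 120 bases before to 50 after the start, 5′ to 3′ on the strand of the gene, with the letters TTTGAA and CCAAT in capitals (ATTGG is CCAAT on the other strand, and in Cdca8 both motifs overlap by 1 base). Aurka, Kif23, Racgap1 and Cdca8 are shown because they were called lower with WT and hold the motifs, Nuf2 because it was called and holds neither, and Cenpf because it holds both and had the smallest change of the 46.
Aurka, chr2:172370521-172370690, minus strand: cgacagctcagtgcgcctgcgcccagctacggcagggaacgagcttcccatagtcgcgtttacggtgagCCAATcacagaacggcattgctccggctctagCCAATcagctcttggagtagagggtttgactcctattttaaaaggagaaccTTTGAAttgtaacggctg
Kif23, chr9:61946750-61946919, minus strand: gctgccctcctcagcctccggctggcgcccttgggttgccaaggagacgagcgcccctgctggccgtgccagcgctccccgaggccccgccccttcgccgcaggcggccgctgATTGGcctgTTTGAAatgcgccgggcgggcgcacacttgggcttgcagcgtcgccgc
Racgap1, chr15:99651607-99651776, minus strand: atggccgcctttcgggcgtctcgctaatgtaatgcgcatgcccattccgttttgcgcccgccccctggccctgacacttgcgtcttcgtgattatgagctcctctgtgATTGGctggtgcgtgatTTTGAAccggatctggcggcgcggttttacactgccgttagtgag
Cdca8, chr4:124936868-124937037, minus strand: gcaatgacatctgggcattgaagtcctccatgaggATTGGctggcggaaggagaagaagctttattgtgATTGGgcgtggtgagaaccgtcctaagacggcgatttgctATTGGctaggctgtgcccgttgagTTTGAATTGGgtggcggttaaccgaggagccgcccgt
Nuf2, chr1:169531415-169531584, minus strand: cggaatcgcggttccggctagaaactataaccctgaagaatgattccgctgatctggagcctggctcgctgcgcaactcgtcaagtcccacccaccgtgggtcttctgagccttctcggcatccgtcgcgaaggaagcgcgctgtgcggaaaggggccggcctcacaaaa
Cenpf, chr1:189688037-189688206, minus strand: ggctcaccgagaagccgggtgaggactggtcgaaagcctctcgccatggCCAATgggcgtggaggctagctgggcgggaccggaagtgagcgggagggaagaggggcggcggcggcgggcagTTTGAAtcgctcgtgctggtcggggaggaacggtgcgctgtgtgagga
The matches are letters in these windows, and no binding was measured.

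Of the 5 spindle assembly checkpoint genes, which hold back anaphase while a kinetochore is unattached, Bub1 and Mad2l1 fell in WT against GFP and 3 were not called. Bub1, a checkpoint kinase at the kinetochore, stood at 1.82, 2.02 and 1.78 with D1709N, 1.92, 2.11 and 1.85 with G1809R, 1.02, 1.14 and 0.82 with WT and 2.00, 1.92 and 1.96 with GFP. The 3 WT arrays were well under all others, and the mutant and GFP arrays overlapped. Bub1 fell with WT (log2 change −0.97 ± 0.12 SE, adjusted p = 0.00577), and against WT it rose with D1709N (0.88 ± 0.12 SE, adjusted p = 0.0137) and with G1809R (0.97 ± 0.12 SE, adjusted p = 0.00841). Mad2l1, whose product Mad2 binds and blocks Cdc20, was at 3.10, 3.27 and 3.31 with D1709N, 3.25, 3.38 and 3.14 with G1809R, 2.28, 2.52 and 2.56 with WT and 3.30, 3.17 and 3.06 with GFP. Its WT arrays were again the lowest, with the smallest gap in replicate 3. Mad2l1 fell with WT (−0.72 ± 0.12 SE, adjusted p = 0.0173) and rose against WT with D1709N (0.77 ± 0.12 SE, adjusted p = 0.0196) and G1809R (0.80 ± 0.12 SE, adjusted p = 0.0165). Bub3, which brings Bub1 and BubR1 to kinetochores, was among the 3 members that moved least in WT against GFP, with 4.02, 3.75 and 3.92 with D1709N, 3.94, 3.97 and 4.11 with G1809R, 3.77, 3.85 and 3.77 with WT and 3.93, 3.99 and 4.06 with GFP. Its WT arrays lay just under the GFP arrays, and D1709N replicate 2 was lower than any WT array. The change in Bub3 was −0.19 ± 0.10 SE, adjusted p = 0.447 (adjusted p = 0.176 with the block). For Bub1b, which encodes BubR1, the change in WT against GFP was −0.71 ± 0.17 SE, adjusted p = 0.0587 (adjusted p = 0.00321 with the block), and for Ttk, the kinase Mps1, it was −0.67 ± 0.15 SE, adjusted p = 0.0504 (adjusted p = 0.0092). Ttk was called in G1809R against WT (0.78 ± 0.15 SE, adjusted p = 0.0391).

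Among the 4 mitotic kinases, Aurka, Plk1 and Nek2 fell in WT against GFP and Plk4 was not called. Aurka, the kinase of spindle poles, was at 4.74, 4.83 and 4.76 with D1709N, 4.87, 4.90 and 4.86 with G1809R, 4.11, 4.10 and 3.69 with WT and 4.97, 4.85 and 4.83 with GFP. The WT arrays were all below the other 9, which lay close together. Aurka fell with WT (−0.91 ± 0.12 SE, adjusted p = 0.00756) and rose against WT with D1709N (0.81 ± 0.12 SE, adjusted p = 0.0181) and with G1809R (0.91 ± 0.12 SE, adjusted p = 0.0117). Plk1, which drives centrosome maturation and mitotic exit, had 4.51, 4.44 and 4.34 with D1709N, 4.63, 4.41 and 4.67 with G1809R, 3.98, 4.18 and 3.71 with WT and 4.71, 4.88 and 4.77 with GFP. Here the GFP arrays were the highest, the WT arrays the lowest and the mutant arrays lay between, with no overlap between D1709N, WT and GFP. Plk1 fell with WT (−0.83 ± 0.14 SE, adjusted p = 0.0144), and against WT it was at 0.48 ± 0.14 SE, adjusted p = 0.133 with D1709N (adjusted p = 0.0379 with the block) and 0.61 ± 0.14 SE, adjusted p = 0.0622 with G1809R (adjusted p = 0.0162). Against GFP it had the smallest p of the members with D1709N (−0.36 ± 0.14 SE, adjusted p = 0.603, unadjusted p = 0.0266) and the third smallest with G1809R (−0.22 ± 0.14 SE, adjusted p = 0.959). Nek2, a kinase of centrosome separation, fell with WT (−0.67 ± 0.13 SE, adjusted p = 0.0317), and Plk4, the kinase of centriole duplication, was at −0.51 ± 0.16 SE, adjusted p = 0.129 (adjusted p = 0.0415 with the block).

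All 4 genes of the chromosomal passenger complex, which corrects faulty attachments and later marks the cleavage site, fell with WT and rose with each mutant against WT. Aurkb, its kinase, was at −1.45, −0.96 and −1.12 with D1709N, −1.48, −1.18 and −1.52 with G1809R, −2.25, −2.25 and −2.26 with WT and −1.20, −1.40 and −1.25 with GFP. The 3 WT arrays were nearly identical and were lower than every other array by a wide margin. Aurkb fell with WT (−0.97 ± 0.14 SE, adjusted p = 0.0106), and it rose against WT with D1709N (1.08 ± 0.14 SE, adjusted p = 0.0119) and with G1809R (0.86 ± 0.14 SE, adjusted p = 0.022). Birc5, the subunit survivin, stood at 5.47, 5.49 and 5.42 with D1709N, 5.37, 5.40 and 5.43 with G1809R, 4.79, 4.45 and 4.62 with WT and 5.46, 5.16 and 5.40 with GFP. Only the WT arrays were under 5. Birc5 fell with WT (−0.72 ± 0.12 SE, adjusted p = 0.0148) and rose against WT with D1709N (0.83 ± 0.12 SE, adjusted p = 0.0144) and G1809R (0.78 ± 0.12 SE, adjusted p = 0.0165). Cdca8, the subunit borealin, had 4.24, 4.41 and 4.16 with D1709N, 4.36, 4.47 and 4.39 with G1809R, 3.53, 3.85 and 3.46 with WT and 4.34, 4.61 and 4.54 with GFP. The WT arrays were lowest in each replicate number, and GFP was highest in replicates 2 and 3. Cdca8 fell with WT (−0.88 ± 0.13 SE, adjusted p = 0.0107) and rose against WT with D1709N (0.65 ± 0.13 SE, adjusted p = 0.043) and G1809R (0.79 ± 0.13 SE, adjusted p = 0.022). A second, dimmer probe of Cdca8 gave −0.97 in WT against GFP. Incenp, the scaffold, was at 4.82, 4.94 and 4.82 with D1709N, 4.79, 4.86 and 4.84 with G1809R, 4.31, 4.16 and 4.18 with WT and 5.05, 4.71 and 4.79 with GFP. No WT array overlapped another group. Incenp fell with WT (−0.63 ± 0.11 SE, adjusted p = 0.0202) and rose against WT with D1709N (0.64 ± 0.11 SE, adjusted p = 0.0254) and G1809R (0.62 ± 0.11 SE, adjusted p = 0.0275).

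**Figure D3:**
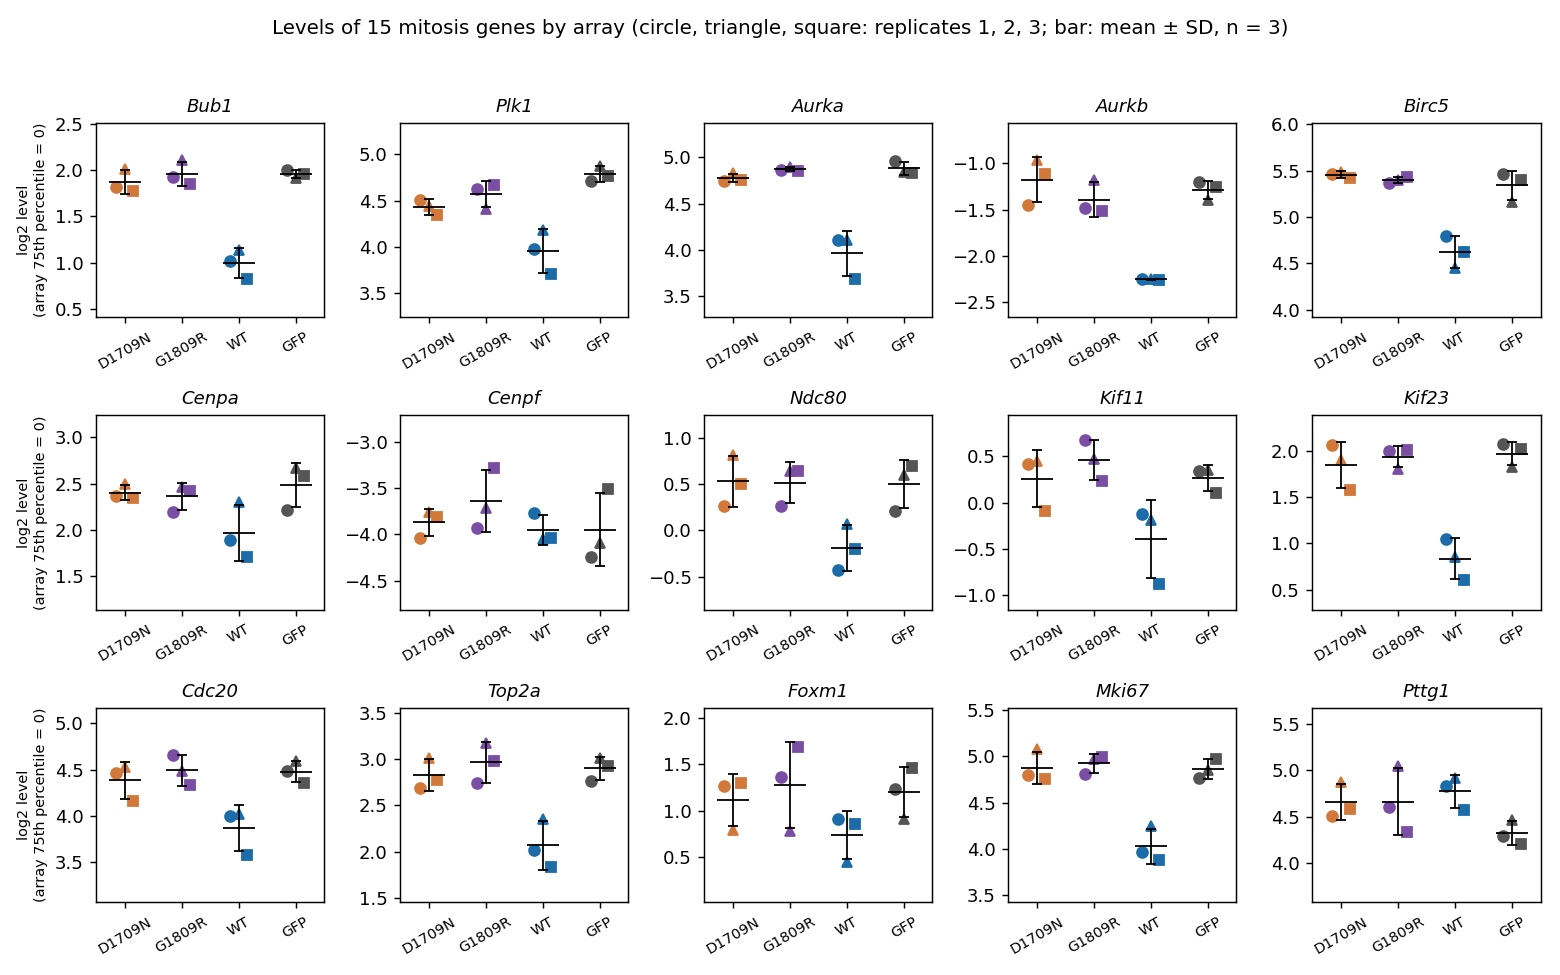
Log2 level (array 75th percentile = 0) of 15 mitosis genes on each array, with groups D1709N, G1809R, WT and GFP from left to right, symbols for replicates 1 to 3, and bars for the mean ± SD of 3 arrays. WT lies lowest for most genes, Cenpf shows no gap between groups, and Pttg1 is highest with WT.

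In the kinetochore set 3 of 7 genes fell in WT against GFP. Spc24, Nuf2, Ndc80 and Spc25 are the 4 subunits of the NDC80 complex, which grips microtubule ends. Spc24 was at 1.03, 1.02 and 0.95 with D1709N, 0.96, 1.10 and 1.14 with G1809R, 0.41, 0.36 and 0.11 with WT and 1.17, 1.17 and 1.24 with GFP. The WT arrays were far below the rest, and D1709N and G1809R arrays lay slightly under GFP. Spc24 fell with WT (−0.90 ± 0.11 SE, adjusted p = 0.00522), the smallest adjusted p among the members, and it rose against WT with D1709N (0.71 ± 0.11 SE, adjusted p = 0.0181) and G1809R (0.77 ± 0.11 SE, adjusted p = 0.0132). In D1709N against GFP it was at −0.19 ± 0.11 SE, adjusted p = 0.787. Nuf2 had 0.53, 0.71 and 0.46 with D1709N, 0.52, 0.71 and 0.71 with G1809R, −0.43, −0.33 and −0.53 with WT and 0.26, 0.46 and 0.59 with GFP. It was below 0 on the 3 WT arrays and above 0 on the other 9. Nuf2 fell with WT (−0.87 ± 0.12 SE, adjusted p = 0.00872) and rose against WT with D1709N (0.99 ± 0.12 SE, adjusted p = 0.00857) and G1809R (1.07 ± 0.12 SE, adjusted p = 0.00665), where it had the smallest p of the members in both comparisons. Against GFP with G1809R it was at 0.21 ± 0.12 SE, adjusted p = 0.944. Ndc80 stood at 0.27, 0.82 and 0.50 with D1709N, 0.26, 0.65 and 0.64 with G1809R, −0.43, 0.07 and −0.20 with WT and 0.21, 0.60 and 0.70 with GFP. Replicate 1 was the lowest array of each group, and WT replicate 2 came close to GFP replicate 1. Ndc80 was at −0.69 ± 0.20 SE, adjusted p = 0.113 in WT against GFP (adjusted p = 0.00235 with the block), and Spc25 at −0.49 ± 0.18 SE, adjusted p = 0.194 (adjusted p = 0.00481).

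Cenpe, a kinesin that carries chromosomes to the spindle equator, fell with WT (−0.82 ± 0.17 SE, adjusted p = 0.0343). Cenpa, the histone H3 variant that marks centromeres, was at 2.37, 2.49 and 2.35 with D1709N, 2.20, 2.47 and 2.42 with G1809R, 1.89, 2.30 and 1.71 with WT and 2.22, 2.67 and 2.58 with GFP. WT replicate 2 lay above GFP replicate 1, so those groups overlapped. The change in Cenpa was −0.52 ± 0.17 SE, adjusted p = 0.16 (adjusted p = 0.0211 with the block). Cenpf, a large microtubule-binding protein of the outer kinetochore, had the smallest change of the 46, with −4.04, −3.76 and −3.81 with D1709N, −3.93, −3.71 and −3.28 with G1809R, −3.77, −4.05 and −4.04 with WT and −4.25, −4.09 and −3.51 with GFP. All groups overlapped, GFP replicate 3 and G1809R replicate 3 were the highest arrays, and the 3 pairs of WT and GFP arrays gave 0.48, 0.05 and −0.53. Its change was −0.0024 ± 0.22 SE, adjusted p = 0.999, and the replicate block gave adjusted p = 0.994. Cenpf signals were far below the array's 75th percentile, though well above background on all 12 arrays.

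Of the 6 genes for spindle motors and spindle assembly, Kif4, Kif18a and Hmmr fell in WT against GFP. Kif4, a kinesin of chromosome arms, stood at 0.49, 0.57 and 0.49 with D1709N, 0.51, 0.70 and 0.66 with G1809R, −0.07, −0.01 and −0.38 with WT and 0.46, 0.58 and 0.78 with GFP. It was under 0 on the WT arrays alone. Kif4 fell with WT (−0.76 ± 0.13 SE, adjusted p = 0.0174) and rose against WT with D1709N (0.67 ± 0.13 SE, adjusted p = 0.0368) and G1809R (0.78 ± 0.13 SE, adjusted p = 0.022). Kif18a, which damps chromosome movement at the plate, was at 0.13, 0.39 and 0.17 with D1709N, 0.40, 0.47 and 0.24 with G1809R, −0.25, −0.31 and −0.56 with WT and 0.39, 0.31 and 0.30 with GFP. WT values were again negative and all others positive. Kif18a fell with WT (−0.70 ± 0.12 SE, adjusted p = 0.0181) and rose against WT with D1709N (0.60 ± 0.12 SE, adjusted p = 0.0425) and G1809R (0.74 ± 0.12 SE, adjusted p = 0.0202). Hmmr, a spindle assembly factor, fell with WT (−0.90 ± 0.18 SE, adjusted p = 0.0309) and rose with G1809R against WT (0.96 ± 0.18 SE, adjusted p = 0.0298).

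Kif11, the motor that keeps the spindle bipolar, was at 0.41, 0.45 and −0.09 with D1709N, 0.67, 0.47 and 0.24 with G1809R, −0.12, −0.19 and −0.88 with WT and 0.34, 0.35 and 0.10 with GFP. WT replicate 3 lay far below the other WT arrays, and replicate 3 was the lowest of each group. Kif11 was at −0.66 ± 0.23 SE, adjusted p = 0.177 in WT against GFP and at adjusted p = 0.00569 with the block. Kif2c, which takes microtubule ends apart, had −1.01, −1.04 and −1.06 with D1709N, −0.91, −0.99 and −0.76 with G1809R, −1.37, −1.41 and −1.43 with WT and −1.17, −1.0 and −0.84 with GFP. Its WT arrays were close together and below the rest by a small step. Kif2c was at −0.40 ± 0.11 SE, adjusted p = 0.095 (adjusted p = 0.0213 with the block), and in D1709N against G1809R it was at −0.15 ± 0.11 SE, adjusted p = 1. Tpx2, the activator of Aurora A on the spindle, was another of the 3 that moved least, with 3.15, 3.08 and 3.31 with D1709N, 3.11, 3.19 and 3.52 with G1809R, 2.68, 3.07 and 3.14 with WT and 3.13, 3.36 and 3.51 with GFP. WT replicate 3 lay above GFP replicate 1, so the groups overlapped. Tpx2 was at −0.37 ± 0.17 SE, adjusted p = 0.342 (adjusted p = 0.0334 with the block).

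In the central spindle and cytokinesis set 5 of 6 genes fell with WT, and the median change of the set was −0.92. Kif23 and Racgap1 form centralspindlin, which bundles microtubules between the separating chromosomes. Kif23 was at 2.06, 1.90 and 1.58 with D1709N, 2.00, 1.81 and 2.00 with G1809R, 1.04, 0.85 and 0.60 with WT and 2.07, 1.83 and 2.01 with GFP. The WT arrays were all about 1 or lower, and the next lowest, D1709N replicate 3, was well above them. Kif23 fell with WT (−1.14 ± 0.16 SE, adjusted p = 0.00797), and it rose against WT with D1709N (1.02 ± 0.16 SE, adjusted p = 0.0186) and G1809R (1.11 ± 0.16 SE, adjusted p = 0.0132). Racgap1 had 3.05, 2.94 and 2.90 with D1709N, 3.25, 2.94 and 2.95 with G1809R, 2.23, 2.25 and 2.07 with WT and 3.26, 3.05 and 3.18 with GFP. The WT arrays were close together and sat clear of the rest. Racgap1 fell with WT (−0.98 ± 0.12 SE, adjusted p = 0.00547) and rose against WT with D1709N (0.78 ± 0.12 SE, adjusted p = 0.0181) and G1809R (0.87 ± 0.12 SE, adjusted p = 0.0126). Kif20a, a motor that moves passenger proteins to the midzone, stood at 3.93, 4.29 and 3.86 with D1709N, 3.96, 4.06 and 3.85 with G1809R, 3.30, 3.15 and 2.91 with WT and 4.26, 3.92 and 3.87 with GFP. Every WT array was below every other array by a wide step. Kif20a fell with WT (−0.90 ± 0.16 SE, adjusted p = 0.0221) and rose against WT with D1709N (0.91 ± 0.16 SE, adjusted p = 0.028) and G1809R (0.84 ± 0.16 SE, adjusted p = 0.0366). Anln, anillin of the contractile ring, was at 5.53, 5.40 and 5.56 with D1709N, 5.42, 5.33 and 5.59 with G1809R, 4.92, 4.86 and 4.92 with WT and 5.66, 5.38 and 5.93 with GFP. WT arrays were under 5 and all others over it. Anln fell with WT (−0.76 ± 0.14 SE, adjusted p = 0.0249), and in G1809R against GFP it was at −0.21 ± 0.14 SE, adjusted p = 0.993. Prc1, a microtubule bundler, fell with WT (−0.93 ± 0.18 SE, adjusted p = 0.0301), and Ect2, which activates RhoA at the cleavage furrow, was at −0.68 ± 0.17 SE, adjusted p = 0.0625 (adjusted p = 0.00751 with the block).

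**Figure D4:**
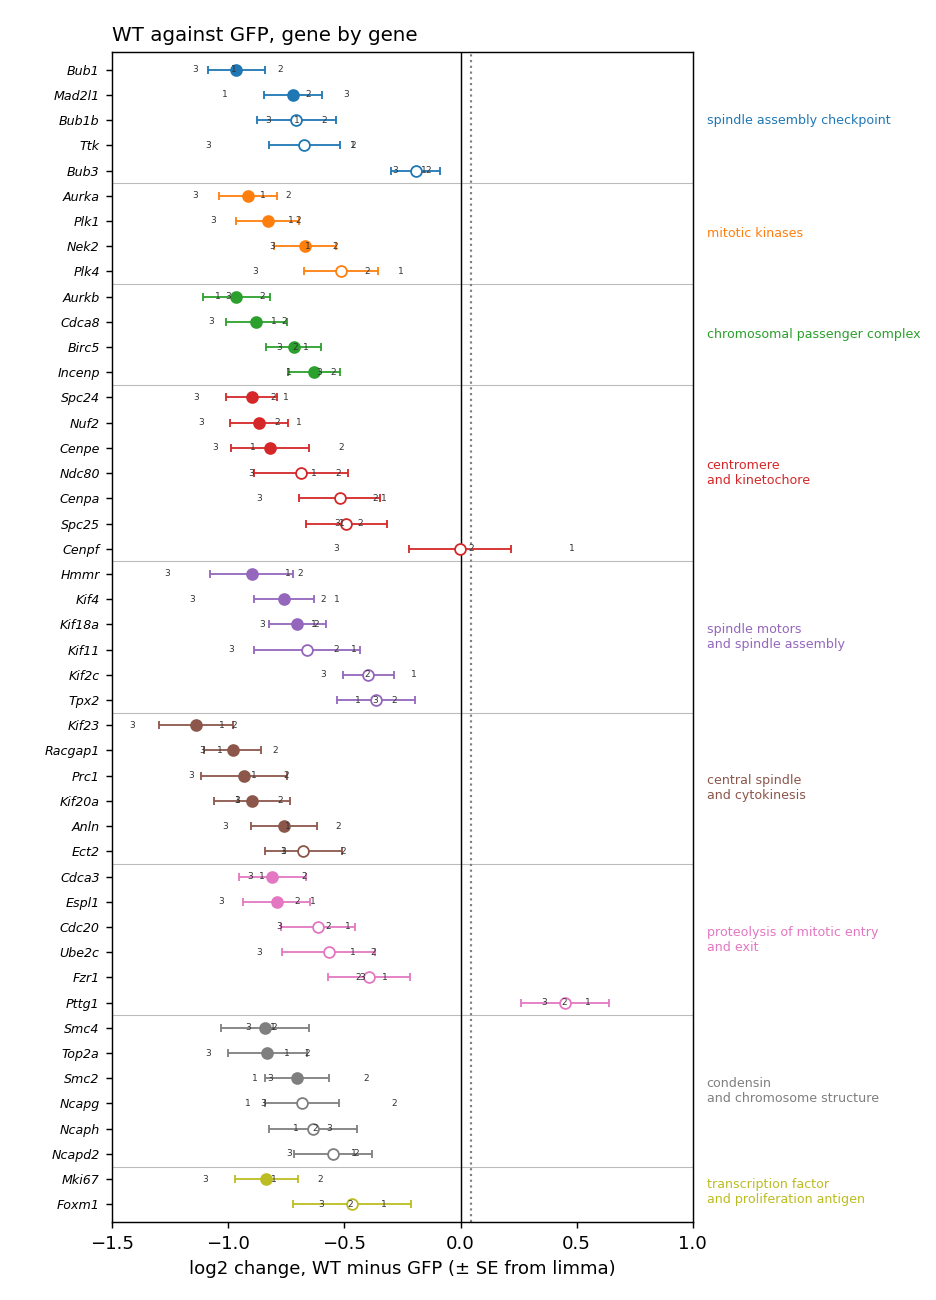
Log2 change in WT against GFP of each of the 46 genes with its SE (points with bars; filled where called), coloured by role, with the change in each pair of arrays of the same replicate number written as 1, 2 and 3; the dotted line is the median of all genes. Points lie between −1.14 and −0.19 except for Cenpf near 0 and Pttg1 at 0.45.

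Proteolysis of mitotic entry and exit was the most mixed set: 2 of 6 genes fell with WT and the range ran from −0.81 to 0.45. Cdca3, a trigger of mitotic entry, was at 3.73, 3.82 and 3.51 with D1709N, 3.67, 3.70 and 3.35 with G1809R, 2.79, 2.64 and 2.55 with WT and 3.64, 3.31 and 3.46 with GFP. WT arrays were the lowest by a wide step. Cdca3 fell with WT (−0.81 ± 0.14 SE, adjusted p = 0.0204) and rose against WT with D1709N (1.03 ± 0.14 SE, adjusted p = 0.0137) and G1809R (0.91 ± 0.14 SE, adjusted p = 0.0176). Espl1, separase, which cuts cohesin at anaphase, had 0.18, 0.12 and 0.28 with D1709N, 0.22, 0.20 and 0.64 with G1809R, −0.30, −0.16 and −0.41 with WT and 0.34, 0.55 and 0.62 with GFP. It was negative on the WT arrays alone, and the D1709N arrays lay between WT and GFP without overlap. Espl1 fell with WT (−0.79 ± 0.14 SE, adjusted p = 0.0229). In D1709N against GFP it was at −0.31 ± 0.14 SE, adjusted p = 0.721, and in D1709N against G1809R at −0.16 ± 0.14 SE, adjusted p = 1.

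Pttg1, securin, the inhibitor that holds separase until anaphase, was the only member above 0 in WT against GFP, and was singled out after its values were seen. It stood at 4.50, 4.87 and 4.58 with D1709N, 4.61, 5.04 and 4.34 with G1809R, 4.83, 4.91 and 4.57 with WT and 4.29, 4.47 and 4.21 with GFP. All WT and all D1709N arrays were above all GFP arrays, while G1809R replicate 3 was below GFP replicate 2. Pttg1 was at 0.45 ± 0.19 SE, adjusted p = 0.281 in WT against GFP (adjusted p = 0.0221 with the block, where it was called higher), at 0.33 ± 0.19 SE, adjusted p = 0.79 in D1709N against GFP and at 0.34 ± 0.19 SE, adjusted p = 0.896 in G1809R against GFP. Its second probe gave 0.45 in WT against GFP as well.

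Cdc20 and Fzr1 encode the activators of the anaphase-promoting complex, and Ube2c its ubiquitin-conjugating enzyme. Cdc20 was at 4.47, 4.53 and 4.16 with D1709N, 4.66, 4.48 and 4.33 with G1809R, 4.0, 4.02 and 3.58 with WT and 4.49, 4.59 and 4.36 with GFP. WT replicate 3 was the lowest array, and no WT array overlapped another group. Cdc20 was at −0.61 ± 0.16 SE, adjusted p = 0.0775 in WT against GFP (adjusted p = 0.00268 with the block). Fzr1 had 2.14, 2.13 and 1.77 with D1709N, 2.24, 2.29 and 2.17 with G1809R, 1.91, 2.21 and 1.72 with WT and 2.23, 2.65 and 2.14 with GFP. WT replicate 2 was above GFP replicate 3, and all 3 D1709N arrays and G1809R replicate 3 lay within the WT range. Fzr1 was at −0.40 ± 0.18 SE, adjusted p = 0.323 in WT against GFP (adjusted p = 0.0337 with the block), at −0.33 ± 0.18 SE, adjusted p = 0.765 in D1709N against GFP and at −0.22 ± 0.18 SE, adjusted p = 1 in D1709N against G1809R. Ube2c stood at 3.71, 3.18 and 3.46 with D1709N, 3.69, 3.31 and 3.70 with G1809R, 3.01, 2.63 and 2.47 with WT and 3.47, 3.01 and 3.34 with GFP. Replicate 2 was the lowest of each group but WT, and WT replicate 1 came level with GFP replicate 2. Ube2c was at −0.57 ± 0.20 SE, adjusted p = 0.19 (adjusted p = 0.0115 with the block), and in G1809R against GFP at 0.30 ± 0.20 SE, adjusted p = 0.994.

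In the condensin and chromosome structure set Smc2, Smc4 and Top2a fell in WT against GFP. Smc2 and Smc4 are the paired ATPases of condensin. Smc2 was at 3.53, 3.79 and 3.65 with D1709N, 3.66, 3.86 and 3.54 with G1809R, 2.90, 2.98 and 2.80 with WT and 3.78, 3.39 and 3.62 with GFP. WT arrays were all under 3 and all others over it. Smc2 fell with WT (−0.70 ± 0.14 SE, adjusted p = 0.0294) and rose against WT with D1709N (0.76 ± 0.14 SE, adjusted p = 0.0287) and G1809R (0.79 ± 0.14 SE, adjusted p = 0.0235). Smc4 fell with WT (−0.84 ± 0.19 SE, adjusted p = 0.0481). Top2a, topoisomerase II alpha, which untangles sister DNA, had 2.69, 3.02 and 2.77 with D1709N, 2.74, 3.18 and 2.98 with G1809R, 2.02, 2.36 and 1.83 with WT and 2.77, 3.02 and 2.92 with GFP. WT arrays were the lowest, and replicate 2 was the highest of each group. Top2a fell with WT (−0.83 ± 0.17 SE, adjusted p = 0.0331) and rose with G1809R against WT (0.90 ± 0.17 SE, adjusted p = 0.0323). The condensin I subunits Ncapg (−0.68 ± 0.16 SE, adjusted p = 0.0513), Ncaph (−0.63 ± 0.19 SE, adjusted p = 0.118) and Ncapd2 (−0.55 ± 0.17 SE, adjusted p = 0.122) were not called, and with the block their adjusted p was 0.00925, 0.00204 and 0.00613.

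Mki67, the Ki-67 antigen used to mark dividing cells, stood at 4.80, 5.07 and 4.76 with D1709N, 4.81, 4.97 and 4.99 with G1809R, 3.96, 4.24 and 3.88 with WT and 4.77, 4.85 and 4.97 with GFP. WT arrays were the lowest and sat clear of the other 9. Mki67 fell with WT (−0.84 ± 0.14 SE, adjusted p = 0.0136) and rose against WT with D1709N (0.85 ± 0.14 SE, adjusted p = 0.0194) and G1809R (0.90 ± 0.14 SE, adjusted p = 0.0161). Foxm1, the forkhead factor that drives G2 and M phase genes, was at 1.26, 0.79 and 1.30 with D1709N, 1.37, 0.77 and 1.68 with G1809R, 0.91, 0.44 and 0.86 with WT and 1.24, 0.91 and 1.46 with GFP. Replicate 2 was the lowest of every group, and the spread within groups was wide. Foxm1 was at −0.47 ± 0.26 SE, adjusted p = 0.457 in WT against GFP, with each pair lower, and at adjusted p = 0.0164 with the block.

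No mitosis gene was called between the mutants either. In D1709N against G1809R 0 of 46 were called, as were 0% of all genes by limma with or without the replicate block. Unadjusted, 0 members had limma p under 0.05, and 65 of all 24184 genes had. The median change was −0.09 against −0.01 for all genes, and the changes ran from −0.23 to 0.22. The 5 smallest p-values were those of Aurkb (0.22 ± 0.14 SE, adjusted p = 1), Kif2c, Fzr1, Kif18a (−0.14 ± 0.12 SE, adjusted p = 1) and Espl1. The 95% intervals of the 46 differences lay between −0.73 and 0.54.

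Of the 46 genes, 13 had 15 further probes above background. All 15 had the sign of the chosen probe in WT against GFP and in each mutant against WT. The median difference between them and the chosen probe was 0.06 in WT against GFP, 0.05 in D1709N against WT and 0.05 in G1809R against WT. It was at most 0.33, 0.49 and 0.59 in these comparisons, each time for Nuf2, whose second probe gave −0.54, 0.51 and 0.48 where the chosen probe gave −0.87, 0.99 and 1.07.

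Lists of related genes, chosen with earlier results of these data known, were set beside the 46. In WT against GFP, where 1.76% of all genes were called lower, 5 of 30 other kinetochore genes fell (median −0.52), among them Cenpi (−1.02 ± 0.20 SE, limma adjusted p = 0.0277) and Ska1 (−0.64). Of other spindle and kinesin genes 8 of 27 fell (median −0.58), with Aspm (−0.95), the cyclin Ccnb2 (−0.95) and Kif20b (−0.95) the furthest. As chosen, this list also held the mitotic entry genes Ccnb1, Ccnb2, Cdk1 and Cdc25c, which are not spindle proteins. Of cohesin and its regulators 3 of 14 fell (median −0.49): Sgo1, the protector of centromeric cohesion (−0.81), the acetyltransferase Esco2 (−0.66) and the subunit Rad21 (−0.54).

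The list for the anaphase-promoting complex, the target of Cdc20 and Fzr1, held its subunits and also Ube2s and Fbxo5, which are not subunits. It had 0 of 14 called and a median of −0.17 in WT against GFP, and 3 were lower with the block. Of condensin II 1 of 3 fell (Ncapd3, −0.59), of the DREAM and MYB-MuvB complexes 2 of 14 (E2f5, −0.97, and Lin9, −0.70; median −0.39) and of S phase genes 2 of 25 (Rfc4, −0.66, and Gins1, −0.64; median −0.41). With the block, where 8.6% of all genes were lower, the counts were 23 of 30 for kinetochore, 18 of 27 for spindle, 10 of 14 for cohesin, 2 of 3 for condensin II, 7 of 14 for DREAM and MYB-MuvB and 17 of 25 for S phase genes. None of these lists had a gene called higher.

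Against WT, 0.992% of all genes were called higher with D1709N and 1.04% with G1809R. On the other spindle and kinesin list 6 of 27 rose with D1709N and 8 of 27 with G1809R. The cyclin Ccnb2 (0.98) led with D1709N and Aspm (0.94) with G1809R. Other kinetochore genes rose in 2 and 3 of 30, cohesin genes in 2 and 2 of 14, S phase genes in 3 and 3 of 25, and DREAM and MYB-MuvB genes in 2 and 2 of 14. In the last list these were E2f5 (0.90 with D1709N, 1.10 with G1809R) and Rbl1, which encodes p107 (0.89 and 0.96). Condensin II had 1 and 2 of 3 higher, with Ncapg2 at 1.10 and 1.06, and the anaphase-promoting complex had 1 and 0 of 14, Anapc1 at 0.71 with D1709N. With the block, where 7.12% and 6.36% of all genes were higher, the counts were 14 and 16 of 27 for spindle, 17 and 21 of 30 for kinetochore, 6 and 7 of 14 for cohesin, 17 and 16 of 25 for S phase, 3 and 4 of 14 for DREAM and MYB-MuvB, 2 and 2 of 3 for condensin II, and 3 and 3 of 14 for anaphase-promoting complex genes. No gene of these lists was called in either mutant against GFP or between the mutants. With the block, 1 kinetochore gene, 1 gene of the anaphase-promoting complex and 2 of DREAM and MYB-MuvB were lower in D1709N against GFP. In G1809R against GFP 1 gene of the anaphase-promoting complex and 2 of DREAM and MYB-MuvB were lower and 1 of the last list was higher, and between the mutants none was called.

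**Figure D5:**
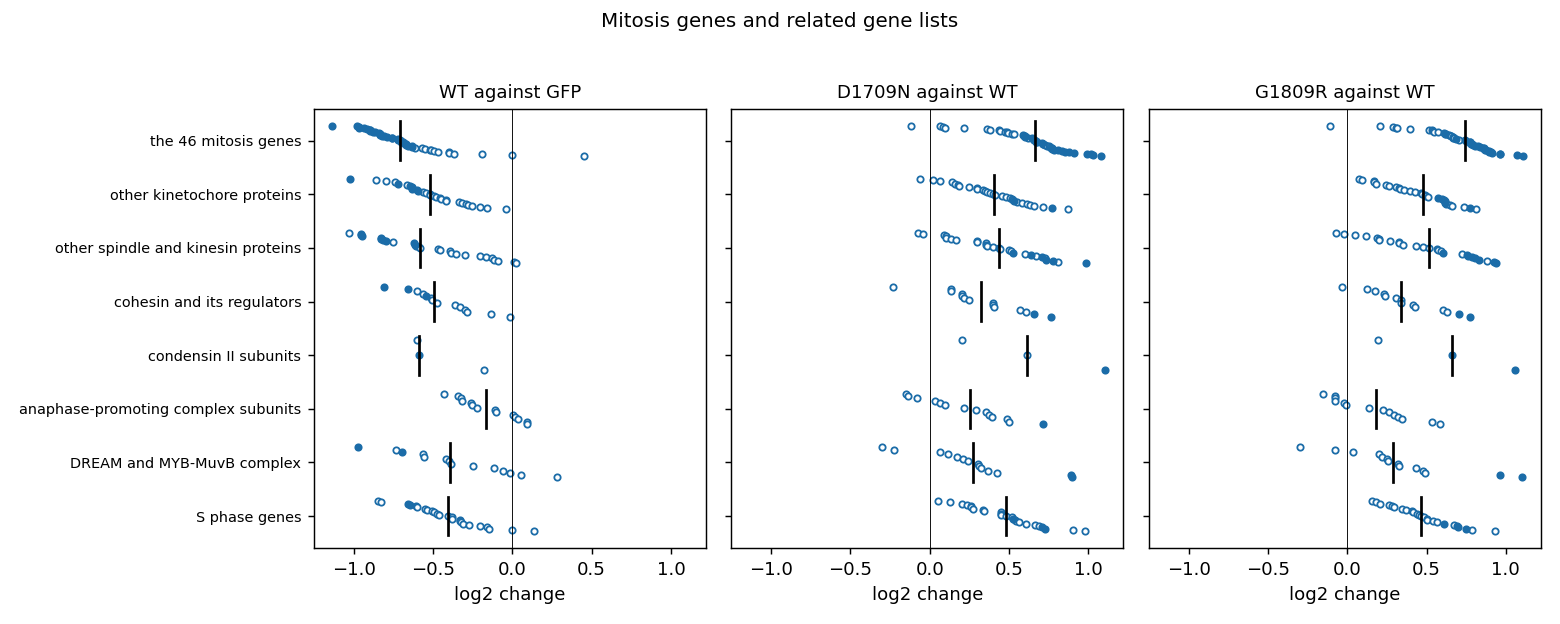
Log2 change of the 46 mitosis genes and of 7 related lists (rows; each point a gene, filled where called by limma; bar, median) in WT against GFP, D1709N against WT and G1809R against WT. In WT against GFP the medians of the condensin II, spindle and kinetochore lists lie nearest to that of the 46, and in all 3 panels that of the anaphase-promoting complex lies nearest to 0.

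Markers of other cell types were measured beside these genes, and their part in the result was not tested. Smooth muscle genes, of which 4 of 8 were above background on all 12 arrays, had a median change of 0.79 in WT against GFP, with 0 of 6 tested called and 2 higher with the block. The log2 of their summed signal ran from 4.78 to 7.03 with D1709N, 4.95 to 6.67 with G1809R, 6.49 to 7.63 with WT and 5.51 to 7.28 with GFP, so the groups overlapped. Lmod1 was above background on no array. In D1709N and G1809R against WT the smooth muscle medians were −0.93 and −1.15, with 0 called and 5 of 6 lower with the block in each, where 8.42% and 6.31% of all genes were lower with the block. Of mesenchymal markers 1 of 11 tested, the receptor Pdgfra, fell in WT against GFP (−0.91), and with the block 4 were lower and 2 higher. Pdgfrb fell in D1709N against WT (−1.11), and with the block 4 mesenchymal markers were lower and 3 higher in each mutant against WT. Of Müllerian markers 0 of 9 and of leukocyte markers 0 of 5 tested were called in WT against GFP, with medians of 0.01 and 0.16, and with the block 1 of each list was higher. In D1709N and G1809R against WT 0 of either list were called, and with the block 4 and 2 Müllerian markers and 1 and 1 leukocyte markers were higher. The 3 endothelial markers tested had a median of 0.19 in WT against GFP and of −0.58 and −0.52 in D1709N and G1809R against WT, with 0 called in each. With the block 0 were called in WT against GFP, and 2 and 1 were lower in the mutants against WT.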

How the data were processed

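RNA of 12 samples was hybridized in 1 colour (Cy3). Per the file headers and the submitters' processing notes, signals were read with Feature Extraction 11.0.1.1 of Agilent. The deposited processed intensity of each spot was already corrected for background by the authors' scanner software and, per the file headers, not scaled between arrays. The authors' deposited log2 values of 31362 probes, with scaling not stated in the labels or files, served as an alternative. Their medians per array were 9.40 to 9.42 and their highest value was 18.85 on every array. Quantile normalization would give such values, so this alternative may repeat that one. Of these probes 31334 matched the scanner files, in the same direction.

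Intensities were taken as log2, less their 75th percentile over the 59305 non-control spots. Control spots and outlier-flagged spots were left out, and the spots of a probe were averaged. Probes were kept (33024 of 55681) if all arrays of some group showed them well above background, 287 were lost to flags, and no non-control spot was saturated. The brightest probe stood for its gene.

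All 12 arrays entered 1 limma fit (version 3.58.1 in R version 4.3.3), by lmFit, contrasts.fit and then eBayes; the group was the only factor and tests were two-sided. Files were read with the R package data.table (version 1.17.8). The procedure was tested on simulated data with changes planted in randomly chosen genes. These data held no shift shared by a set of genes and no slide effect, and scaling was not part of the test. Arrays with the same replicate number deviated together. Deviations from group means correlated at 0.60 to 0.85 in the 18 pairs of arrays with the same number and at −0.67 to 0.20 in the 36 others. Deviations within a group sum to 0, so these ranges are not independent of each other. The labels do not say what the number stands for, and for number 1 it cannot be told apart from slide 1.

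The 46 genes, the related lists and the markers were chosen with earlier results of these data known. Values on every array are given for called genes (at most the 14 with the smallest p in a comparison), for 14 fixed genes, for the 5 smallest p where none was called, and for the 3 genes that moved least in WT against GFP. Alternatives changed the filter, scaling, background correction, probe choice, samples, blocks and value table. RefSeq promoters (GRCm38.p6) of Aurkb, Incenp, Spc24, Tpx2, Kif20a, Smc4 and Foxm1 were not used here.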

Additional observations from a re-analysis of the deposited data

How the results depend on the processing

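Median changes kept their sign under every alternative run, except the median near 0 of G1809R against GFP (0.02), which was below 0 under several. The counts of called members (lower in WT against GFP, higher in D1709N against WT, higher in G1809R against WT, in this order) were 26, 17 and 22. They stayed within 1.5 times of these under quantile normalization, normexp background correction, the deposited value table and the mean of all probes. They were 8, 2 and 2 without the filter on dim probes, 11, 2 and 2 without scaling between arrays, and 0, 0 and 0 with median scaling, with only the 2 groups compared in the fit, or on slide 2 alone. With the slide as a block they were 35, 29 and 34. With the replicate block they were 43, 40 and 40, with 1 member higher in WT against GFP, and the block changed no other count. Without single arrays the counts of members ran from 6 to 26, 0 to 15 and 4 to 21, and those of all genes from 96 to 361, 28 to 186 and 41 to 205. With the block and 1 array left out, a fit chosen after seeing the data, members ran from 36 to 43, 30 to 39 and 36 to 40, and 0 or 1 member was higher in WT against GFP. All genes then ran from 1079 to 1943, 663 to 1647 and 746 to 1398. Medians moved to −0.99, 0.88 and 0.99 with median scaling. The median of all genes moved as well, in WT against GFP from 0.04 to −0.24, and to 0.22 and 0.25 in the mutants against WT. Less the median of all genes, the members were at −0.75, 0.67 and 0.74 with either scaling. Without scaling, medians were −0.22 in D1709N against GFP, −0.065 in G1809R against GFP and −0.16 in D1709N against G1809R. Those of all genes were −0.12, −0.03 and −0.08. Less these, the members were at −0.10, −0.04 and −0.08, the same as in the main fit. Leaving out 1 array moved the median in D1709N against WT between 0.58 and 0.74. All genes called in WT against GFP numbered 713, and 4300 with the replicate block. The causes of these differences were not tested.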
